A study of Mus musculus with 3 samples.

Results

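Dermal Tregs with Gimap, S1pr1 and Cxcr3 were 126 of the 838 dermal cells kept for study, chosen by a score. Barcodes of the dermal library were kept if they had at least 500 unique molecular identifiers (UMIs, counted RNA molecules), at least 300 genes, at most 10% mitochondrial UMIs and at least 2 UMIs over the T cell genes Cd3d, Cd3e, Cd3g and Cd4. The score was the summed UMIs of Gimap4, Gimap6, Gimap7, S1pr1, Izumo1r, Cxcr3 and Ms4a4b divided by all UMIs of the cell, and cells at or above its 85th percentile, 975 score UMIs per 1000000 UMIs, were taken. These are called member cells here, and the 712 kept cells under the score limit are called the other dermal cells. Just inside the limit lay scores of 976.8, 1002.2 and 1016.3, and just outside it scores of 973.6, 967.1 and 964.2, so the score was continuous there. The 7 genes of the score chose the cells, so their values are a description and support nothing.

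The series holds 1 dermal, 1 epidermal and 1 lymph node library of regulatory T cells (Tregs) from adult mice of the strain FOXP3-EGFP (C.Cg-Foxp3tm2Tch/J), in which cells that express Foxp3 are green. Cells positive for GFP, CD4, CD3 and CD45 were sorted in all 3, the skin layers having been parted with thermolysin and the dermis then digested with collagenase, and the node having been mashed. The skin libraries were made with 10x v3 chemistry and the node library with v2 chemistry. All mice carried the reporter, no treatment is named, and the sources used here do not give the number, exact age or sex of the mice. Of 10856 deposited barcodes, 10414 passed the same limits. With 1 library a tissue there is no replicate, and every interval below is an exact 95% interval that covers counting error only.

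Gimap genes encode GTPases of immunity-associated proteins, which lymphocytes use to survive and stay at rest. S1pr1 is the receptor for sphingosine-1-phosphate, by which T cells leave tissues for lymph and blood, and Klf2 is the transcription factor that turns it on. Cxcr3 is the receptor for the interferon-induced chemokines Cxcl9 and Cxcl10 and is induced by the type 1 transcription factor Tbx21. Izumo1r encodes folate receptor 4, and Ms4a4b a multi-pass membrane protein of resting T cells. In skin, by contrast, most Tregs are known for an effector and tissue-repair programme with Areg, Il1rl1, Gata3 and Itgae.

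Some barcodes occurred in more than 1 library. There were 43 barcodes in both dermis and epidermis, 1 in both dermis and lymph node and 0 in both epidermis and lymph node. In 30 of the 43 the epidermal library held over 3 times as many UMIs. In all 30 the best match among the epidermal expression profiles of the 43 was that of the same barcode. The other epidermal barcodes were not searched. Their dermal counts were 7.09% to 8.6% of the epidermal ones, with a median of 7.98%. Of the member cells 10 had a shared barcode (7.94%), against 17 of the other dermal cells (2.39%). The 10 had a median of 1401 UMIs in the dermal library and gave 2.29% of the member cells' UMIs. All 10 passed the limits in the epidermal library too, where 0 of them met the same rule. Counts of calls, list medians and the calls that changed are also given without the shared barcodes.

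Member cells and other dermal cells were of like depth, with medians of 4895 UMIs and 1686 genes in member cells and 4798 UMIs and 1699.5 genes in other dermal cells. Ribosomal protein genes took 21.5% of UMIs in member cells and 18.6% in other dermal cells, and mitochondrial genes 4.21% in member cells and 4.57% in other dermal cells. At least 1 Foxp3 UMI was found in 42.1% of member cells and 49.7% of other dermal cells, Ctla4 in 92.9% of member cells and 94.8% of other dermal cells, and Ikzf2 in 90.5% of member cells and 97.9% of other dermal cells, so both carried Treg markers. A Y-linked UMI was found in 11.9% of member cells and 7.72% of other dermal cells, and a UMI of Xist, the RNA of the inactive X chromosome, in 73.8% of member cells and 87.9% of other dermal cells. The dermal library thus held cells of both sexes; 12 member cells and 42 other dermal cells had a Y-linked and no Xist UMI.

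The genes of the label were not all found in each cell. Any of Gimap4, Gimap6 and Gimap7 was found in 76 of the 126 member cells, Cxcr3 in 47, S1pr1 in 46 and Izumo1r in 34. S1pr1 and Cxcr3 were found together in 16 member cells and in 11 other dermal cells, and all 7 genes in 5 member cells and 0 other dermal cells. Ms4a4b was found in 107 member cells and made up 52.3% of the 1416 UMIs of the score, while Gimap6 made up 14.6% and Gimap7 3.88%. In 15 member cells Ms4a4b was the only gene of the score that was found. The cell with the highest score, 8438, had 8 UMIs of Gimap4, 9 of Gimap6, 1 of Gimap7, 7 of S1pr1, 1 of Izumo1r, 4 of Cxcr3 and 5 of Ms4a4b among 4148. The cell with the lowest, 977, had 5 UMIs of Ms4a4b and none of the other 6 genes among 5119. The member cells are thus a range of scores and not a set of like cells.

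The promoters of the genes of the score are shown where they share a motif. RefSeq's table for GRCm38.p6 (mm10) held a promoter of 300 bases, 250 before and 50 after the start, for 6 of the 7 genes, S1pr1 being the other. The RUNX motif TGTGGT, searched on both strands, was found in 4 of the 6, and it occurs in 16.8% of the table's 32817 promoters. The 4 lie at chr6:48684328-48684627 on the plus strand (Gimap4), chr6:48718371-48718670 on the plus strand (Gimap7), chr9:14903718-14904017 on the minus strand (Izumo1r) and chrX:101734098-101734397 on the minus strand (Cxcr3). They are printed 5′ to 3′ on the strand of the gene, and the capitals mark the motif, here always as its reverse complement.
Gimap4: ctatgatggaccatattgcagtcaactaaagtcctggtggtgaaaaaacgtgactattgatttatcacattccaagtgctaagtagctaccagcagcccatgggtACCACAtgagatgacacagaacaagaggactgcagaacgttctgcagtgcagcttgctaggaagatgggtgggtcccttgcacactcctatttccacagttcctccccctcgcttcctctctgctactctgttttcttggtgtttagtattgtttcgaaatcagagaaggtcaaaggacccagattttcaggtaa
Gimap7: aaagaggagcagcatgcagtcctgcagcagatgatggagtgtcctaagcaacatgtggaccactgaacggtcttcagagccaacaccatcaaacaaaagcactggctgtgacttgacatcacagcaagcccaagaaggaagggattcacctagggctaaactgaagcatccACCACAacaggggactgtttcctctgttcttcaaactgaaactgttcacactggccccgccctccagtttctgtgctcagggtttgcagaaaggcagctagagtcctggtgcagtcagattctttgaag
Izumo1r: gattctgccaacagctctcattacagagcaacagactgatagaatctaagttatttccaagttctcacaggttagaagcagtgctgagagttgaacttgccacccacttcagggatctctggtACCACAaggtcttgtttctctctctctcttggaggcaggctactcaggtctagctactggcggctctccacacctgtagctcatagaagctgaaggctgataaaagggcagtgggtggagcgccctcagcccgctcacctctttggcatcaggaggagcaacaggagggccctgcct
Cxcr3: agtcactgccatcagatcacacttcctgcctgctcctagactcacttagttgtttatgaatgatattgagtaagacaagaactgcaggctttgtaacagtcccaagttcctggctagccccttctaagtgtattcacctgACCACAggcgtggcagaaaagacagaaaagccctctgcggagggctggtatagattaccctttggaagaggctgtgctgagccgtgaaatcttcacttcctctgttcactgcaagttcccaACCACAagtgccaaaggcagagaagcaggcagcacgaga
The KLF motif CACCC was found in 3 of the 6 and in 57.5% of all promoters, and the TCF/LEF motif CTTTGA in 2 of the 6 and in 16.0% of all. The ETS motif CCGGAAG and the interferon-stimulated response element were in 0 of the 6, against 8.86% and 3.43% of all promoters. No RUNX match in the 4 overlapped another motif searched. Of the 5 Gimap genes outside the score, 1 had the RUNX motif. These matches are letters in a window of 300 bases and say nothing of binding.

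The genes of the score had these levels, in counts per 1000000 UMIs (CPM) of the summed cells of a group. Ms4a4b stood at 1030 CPM in member cells (interval 957 to 1110) and 98.6 CPM in other dermal cells (88.9 to 109). Gimap6 stood at 288 CPM in member cells (250 to 330) and 39.1 CPM in other dermal cells (33.0 to 45.9). Gimap4 stood at 142 CPM in member cells (116 to 172) and 5.24 CPM in other dermal cells (3.20 to 8.10). Cxcr3 had 171 CPM in member cells and 24.9 CPM in other dermal cells. S1pr1 had 163 CPM in member cells and 26.7 CPM in other dermal cells. Izumo1r had 100 CPM in member cells and 13.1 CPM in other dermal cells, and Gimap7 76.6 CPM in member cells and 2.88 CPM in other dermal cells. After each cell was thinned to 1500 UMIs, Gimap6 was found in 30.2% of 116 member cells and 4.43% of 699 other dermal cells, against 51.6% of member cells and 13.2% of other dermal cells unthinned. Gimap3, which is outside the score, was found in 19.8% of member cells and 5.72% of other dermal cells after thinning, and in 48.4% of member cells and 16.7% of other dermal cells before it. The sort leaves no cell type that should lack these genes, so the share that free RNA gives was not measured.

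To see how far the genes of the score went together, each was left out in turn and 126 cells were chosen again with the other 6. Gimap7 was then 19.7-fold higher in the chosen cells (interval 10.7 to 38.4), Gimap4 13.0-fold (8.69 to 19.7) and Gimap6 5.75-fold (4.64 to 7.12). Izumo1r was 5.23-fold higher (3.60 to 7.58), S1pr1 3.98-fold (3.01 to 5.24), Cxcr3 3.79-fold (2.86 to 5.0) and Ms4a4b 3.38-fold (2.98 to 3.82). The intervals of Izumo1r, S1pr1 and Cxcr3 overlapped that of Gimap6. The chosen sets were unlike, so the genes are not ranked by these ratios. Of the 126 cells chosen, 124 were member cells when Gimap7 was left out, and 81 when Ms4a4b was. For the other genes it was 116 (Cxcr3) to 121 (Gimap4). The Gimap genes lie side by side on chromosome 6, from Gimap8 at chr6:48647234-48660875 to Gimap3 at chr6:48764464-48770851, and their sequences are alike, so that reads between neighbours may have been split in counting.

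**Figure D1:**
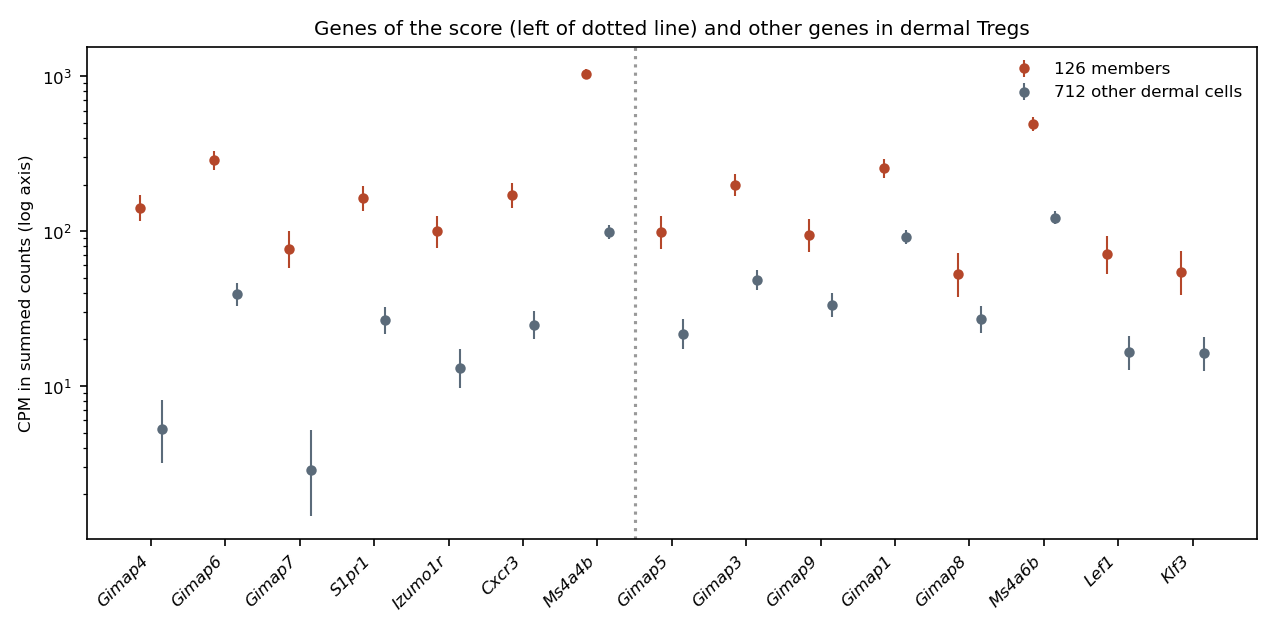
Levels of the 7 genes of the score (left of the dotted line) and of 8 other genes (right of it) in 126 member cells (red) and 712 other dermal cells (grey), in CPM of the summed counts on a log axis; bars are exact 95% Poisson intervals. The genes of the score chose the cells; among the others, Gimap3 stands at 199 CPM in member cells and 48.5 CPM in other dermal cells.

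Among genes outside the score, member cells had more RNA of other Gimap genes, of lymphoid and resting genes and of interferon-induced genes, and less of Il10 and Ccr8. A gene was called higher or lower where its CPM differed at least 2-fold with at least 50 CPM in the higher group. Genes under 50 CPM in both groups could not be called, and so the lists below hold genes that had no call to make. Of 2979 genes that reached 50 CPM, 40 were called higher (1.34%) and 50 lower (1.68%). Without the shared barcodes 44 of 2944 were higher (1.49%) and 47 lower (1.60%), of which 39 and 46 were among those called with all cells. The list medians were then 1.60 for the other Gimap genes, 0.57 for the resting genes, 1.11 for the interferon response, 0.82 for the type 1 genes, -0.25 for the Treg core and -0.39 for the effector and tissue genes. Over the 7453 genes with at least 10 CPM in either group, the median log2 ratio was -0.10, with 3019 genes above 0 and 4434 under it. Since the score was measured on the same cells, a gene that goes with it cell by cell had to differ, and the counts describe the member cells and test nothing.

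All 5 other Gimap genes were above the other dermal cells and 4 were called, with a median log2 ratio of 1.51. Gimap5 was at 98.8 CPM in member cells and 21.8 CPM in other dermal cells, 4.54-fold higher (3.26 to 6.31), and was found in 24.6% of member cells and 9.27% of other dermal cells. Gimap3 was 4.10-fold higher (3.28 to 5.13), Gimap9 2.84-fold (2.09 to 3.85) and Gimap1 2.78-fold (2.31 to 3.33). Gimap8 stood at 52.9 CPM in member cells and 27.0 CPM in other dermal cells, just short of 2-fold, and was called without the shared barcodes. The calls of Gimap1, Gimap3 and Gimap5 held in all 25 settings tried, and that of Gimap9 in 23. Of the Ms4a and Ly6 surface proteins, Ms4a6b rose to 491 CPM in member cells, against 122 CPM in other dermal cells, a 4.01-fold difference (3.49 to 4.62) that held in all 25 settings. Ly6a, the stem cell antigen Sca-1, had 824 CPM in member cells and 544 CPM in other dermal cells and was not called.

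Of the lymphoid homing and resting genes, 18 of 22 reached 10 CPM, and 13 of the 18 had a ratio above 1, against 3019 of all 7453 genes. The 50 CPM that a call needs was reached by 13 of the 18. Of these, 3 were called higher and 0 lower, and the list had a median log2 ratio of 0.54. Lef1, a transcription factor of naive and memory T cells, was at 71.0 CPM in member cells and 16.5 CPM in other dermal cells, 4.30-fold higher (2.91 to 6.32). Klf3, a zinc finger repressor of the Klf family, rose to 54.3 CPM in member cells, against 16.3 CPM in other dermal cells, a call that held in 19 of 25 settings. Rasgrp2, which activates the integrin switch Rap1, rose to 75.2 CPM in member cells, against 31.7 CPM in other dermal cells. Klf2 stood at 1960 CPM in member cells and 1250 CPM in other dermal cells, 1.57-fold apart (1.48 to 1.67) and under the call. After thinning it was found in 69.0% of member cells and 58.2% of other dermal cells, and before thinning in 75.4% of member cells and 77.2% of other dermal cells. Tcf7, a transcription factor of resting T cells, had 6 UMIs in 4 member cells and 0 in other dermal cells, and the exact interval of its ratio starts at 6.25. The survival factor Bcl2 had 17 UMIs in 8 member cells and 18 UMIs in 13 other dermal cells, or 23.7 CPM in member cells and 4.72 CPM in other dermal cells. Ccr7, the receptor that leads T cells to lymph nodes, stood at 82.1 CPM in member cells and 71.3 CPM in other dermal cells, with an interval of the ratio of 0.854 to 1.53. Il7r was at 315 CPM in member cells and 430 CPM in other dermal cells.

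Interferon-induced genes were the list with the most calls. Of 21 genes 20 reached 10 CPM, and all 20 had a ratio above 1, against 3019 of all 7453 genes. The 50 CPM that a call needs was reached by 12 of the 20. Of these, 7 were called higher and 0 lower, and the list had a median log2 ratio of 1.12. Zbp1, a sensor of left-handed nucleic acid, was at 118 CPM in member cells and 32.2 CPM in other dermal cells, 3.67-fold higher (2.75 to 4.88). Iigp1, an immunity-related GTPase, rose to 54.3 CPM in member cells, against 8.39 CPM in other dermal cells, with 74.4% of its UMIs in 5 member cells. Isg15, Irf7, Ifi47 and Bst2 were 2.43-, 2.34-, 2.21- and 2.13-fold higher, with 54.9% of the Isg15 UMIs in member cells lying in 5 cells. Outside the list, Ifi27l2a reached 2500 CPM in member cells and 704 CPM in other dermal cells, 3.55-fold higher (3.34 to 3.77), with 41.5% of its UMIs in 5 member cells, and Phf11b was 3.51-fold higher (2.59 to 4.73); both have close copies in the genome, so their counts are uncertain.

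The interferon difference was not even over the cells. Among cells positive for Xist alone, 90 member cells and 613 other dermal cells, the median log2 ratio of the interferon list was 0.44, and among the 12 and 42 cells positive for Y-linked RNA alone it was 1.14. In the cells with Xist alone the calls of Iigp1, Irf7, Ifi47 and Bst2 were among those lost and Isg15 had a log2 ratio of -0.15, while Zbp1 and Ifi27l2a kept theirs. In the cells with Y-linked RNA alone the calls of Irf7 and Bst2 were lost as well, while Iigp1, Ifi47, Isg15, Zbp1 and Ifi27l2a kept theirs. The part of animal or sex in the difference was not tested.

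The type 1 genes gave a median log2 ratio of 0.80 over 12 genes. Of the 12, 8 reached the 50 CPM that a call needs, with 2 called higher and 0 lower. Stat4, which carries the interleukin 12 signal, was 2.60-fold higher (1.82 to 3.69). Ifngr1, a chain of the interferon gamma receptor, had 683 CPM in member cells and 401 CPM in other dermal cells and was not called. Tbx21 had 11 UMIs in 8 member cells and 4 UMIs in 3 other dermal cells, and Ifng 33 UMIs in 8 member cells and 59 UMIs in 7 other dermal cells, and 5 cells held 90.9% of the UMIs of Ifng in member cells. Nkg7, a protein of cytotoxic granules, had 136 CPM in member cells and 72.6 CPM in other dermal cells. It was not called.

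**Figure D2:**
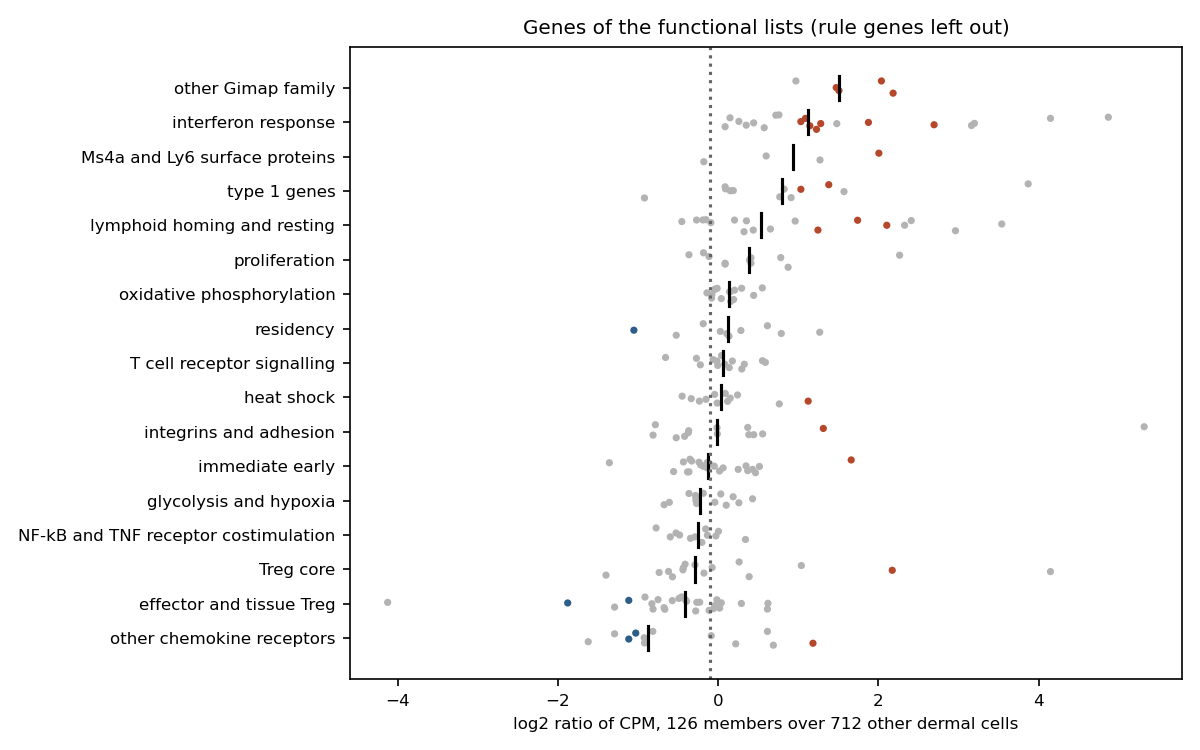
Log2 ratio of CPM, member cells over other dermal cells, for each gene of the 17 functional lists that reached 10 CPM in either group, with the genes of the score left out. Red points were called higher, blue points lower and grey points not; black bars are list medians and the dotted line is the median of all 7453 genes, -0.10. The other Gimap family (1.51) and the interferon response (1.12) lie farthest to the right.

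Taken as lists, genes of Treg identity and of tissue effector function had medians a little under the level of the other dermal cells. Single genes differed more, with Nrp1 called higher and Il10 and Ccr8 called lower. Of 15 Treg core genes, 10 of which reached 50 CPM, 1 was called higher and 0 lower, with a median log2 ratio of -0.29. Nrp1, the surface receptor neuropilin 1 that is common on thymus-derived Tregs, rose to 102 CPM in member cells, against 22.5 CPM in other dermal cells, 4.51-fold (3.25 to 6.23). Foxp3 itself stood at 104 CPM in member cells and 155 CPM in other dermal cells, Il2ra, the interleukin 2 receptor alpha chain, at 202 CPM in member cells and 336 CPM in other dermal cells, and Ctla4, the inhibitory receptor, at 2040 CPM in member cells and 2300 CPM in other dermal cells. None of these 3 was called.

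Of 29 effector and tissue Treg genes 27 reached 10 CPM, and 22 of the 27 had a ratio under 1, against 4434 of all 7453 genes. The 50 CPM that a call needs was also reached by 22 of the 27. Of the genes that reached it, 0 were called higher and 2 lower, and the list had a median log2 ratio of -0.41. Il10, the inhibitory cytokine, fell to 33.4 CPM in member cells, against 123 CPM in other dermal cells, so that the other dermal cells were 3.67-fold higher (2.44 to 5.79). It was found in 8 of 126 member cells and 145 of 712 other dermal cells. Ccr8, a chemokine receptor of skin Tregs, fell to 25.1 CPM in member cells, against 54.3 CPM in other dermal cells, and kept its call in 17 of 25 settings. Areg, the growth factor amphiregulin, was level at 770 CPM in member cells and 760 CPM in other dermal cells, with a ratio of 1.01 (0.923 to 1.11), and after thinning it was found in 39.7% of member cells and 39.1% of other dermal cells (46.8% of member cells and 57.2% of other dermal cells unthinned). Il1rl1, the interleukin 33 receptor, was level too at 138 CPM in member cells and 142 CPM in other dermal cells. Gata3 had 327 CPM in member cells and 393 CPM in other dermal cells, and Klrg1 184 CPM in member cells and 244 CPM in other dermal cells. Of the Klrg1 UMIs in member cells 39.4% lay in 5 cells. After thinning Klrg1 was found in 12.9% of member cells (7.42 to 20.4) and 28.6% of other dermal cells (25.3 to 32.1). The granule protease Gzmb had 599 CPM in member cells and 389 CPM in other dermal cells, 50.2% of the UMIs of Gzmb in member cells lying in 5 cells. Tff1, a secreted trefoil peptide, had 2 UMIs in member cells and 185 in other dermal cells, or 2.78 CPM in member cells and 48.5 CPM in other dermal cells, under the limit for a call.

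Of the residency genes 10 of 13 reached 10 CPM, and Ahr, the aryl hydrocarbon receptor, was the 1 call, lower at 48.7 CPM in member cells and 101 CPM in other dermal cells. It kept that call in 15 of 25 settings and lost it under both other scalings. Cd69, which pulls S1pr1 off the cell surface, had 885 CPM in member cells and 1010 CPM in other dermal cells, and Itgae, the epithelium-binding integrin alpha E, 312 CPM in member cells and 448 CPM in other dermal cells. Among 12 other chemokine receptors that reached 10 CPM, Ccr4, which binds the skin chemokine Ccl17, rose to 107 CPM in member cells, against 47.2 CPM in other dermal cells (2.27-fold, 1.72 to 2.98). Gpr55, a lipid receptor, fell to 80.7 CPM in member cells, against 165 CPM in other dermal cells, and lost its call without the shared barcodes. Ccr6 had 61.2 CPM in member cells and 116 CPM in other dermal cells and was not called. Of the integrins and adhesion genes, Itgb1, the beta 1 chain, was called, 2.48-fold higher (1.94 to 3.16).

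Among the genes outside these lists, the largest falls by the naming rule included Clic4, an intracellular chloride channel protein, with 11.1 CPM in member cells and 67.6 CPM in other dermal cells, which were 6.07-fold higher (3.04 to 14.2). Hspb1, a small heat shock protein, was 4.49-fold higher in other dermal cells (2.77 to 7.78), and Itsn1, an endocytic scaffold, 3.65-fold (2.0 to 7.42). Gcnt1, the enzyme that branches core 2 glycans on selectin ligands, was 3.15-fold higher in other dermal cells (1.96 to 5.39), and Sdc4, the proteoglycan syndecan 4, 2.68-fold (2.12 to 3.42). Frmd5, Mlf1, Nav2 and Ier5l completed the 10, at 3.35-, 3.15-, 2.95- and 2.83-fold. Cd83, a surface marker of activated lymphocytes chosen here after its values were seen, had 159 CPM in member cells and 414 CPM in other dermal cells, which were 2.61-fold higher (2.16 to 3.18).

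Other functional lists held few or no calls. Jun, part of the AP-1 transcription factor, was the 1 call of 23 immediate early genes. It stood at 340 CPM in member cells and 107 CPM in other dermal cells (3.16-fold, 2.69 to 3.71, held in all 25 settings). Of the Jun UMIs in member cells, however, 45.9% lay in 5 cells. After thinning, the intervals of the share of cells with Jun overlapped, at 11.6% to 26.3% in member cells and 8.79% to 13.6% in other dermal cells. Fos stood at 1690 CPM in member cells and 1850 CPM in other dermal cells. The list median was -0.13. The median log2 ratios of the lists whose calls were given above were 0.94 for the Ms4a and Ly6 surface proteins, 0.12 for residency, -0.87 for the other chemokine receptors and -0.01 for integrins and adhesion, and that of the heat shock genes was 0.04. Hspa1b was the 1 call of 12 heat shock genes, at 362 CPM in member cells and 166 CPM in other dermal cells, but 76.2% of its UMIs in member cells lay in 5 cells and its near-identical neighbour Hspa1a makes its count uncertain. T cell receptor signalling, NF-kB and TNF receptor costimulation, oxidative phosphorylation and glycolysis had 0 calls and medians of 0.06, -0.25, 0.14 and -0.23. Of the 14 glycolysis and hypoxia genes 10 reached the 50 CPM that a call needs. The proliferation genes had a median of 0.39 over 11 genes, which was 0.09 over 9 genes without the shared barcodes. They had 0 calls, but only 4 of the 11 reached the 50 CPM that a call needs.

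Markers of other cells were mostly absent. Summed over 11 endothelial and mural markers, member cells had 82.1 CPM and other dermal cells 27.0 CPM. Pecam1, which lymphocytes also carry, gave 39.0 CPM of this in member cells and 7.86 CPM in other dermal cells, and Cdh5, Kdr, Cldn5, Tie1, Esam, Emcn, Rgs5 and Acta2 were at 0 in member cells. Of 10 genes of conventional CD4 effector cells, Cd40lg, the ligand of CD40, rose to 62.6 CPM in member cells, against 18.9 CPM in other dermal cells (3.32-fold, 2.23 to 4.88), and Il2, Il17a, Il22, Il4, Il5, Il13 and Il21 were at 0 in member cells. The list summed to 182 CPM in member cells and 114 CPM in other dermal cells. The 9 dendritic and Langerhans cell markers summed to 450 CPM in member cells and 702 CPM in other dermal cells, and Cd74, the invariant chain, was called lower at 187 CPM in member cells and 397 CPM in other dermal cells, with Cd207, Xcr1, Flt3 and Itgax at 0 in member cells. In member cells the summed markers were at 62.6 CPM for keratinocytes, 27.8 for CD8 T and NK cells, 16.7 for B cells, 9.74 for macrophages and neutrophils, 6.96 for fibroblasts, 1.39 for erythroid cells and platelets and 0 for mast cells and melanocytes. In other dermal cells the same sums were 105, 30.4, 14.9, 3.67, 7.34, 0 and 0.524 CPM. The part of such cells in the results was not tested. In cells with a Foxp3 UMI, 53 member cells and 354 other dermal cells, the list medians were 1.49 for the other Gimap genes, 0.56 for the resting genes, 1.38 for the interferon response, 0.48 for the type 1 genes, 1.73 for the Ms4a and Ly6 surface proteins and -0.47 for the effector and tissue genes.

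Genes outside the score were followed from low to high score in 4 bins: 414 cells with a score of 0, 298 with a score above 0 and under the limit, and 63 member cells each below and above the members' median score of 1652. Gimap3 had 33.5, 63.6, 132 and 262 CPM along the bins, and Gimap5 13.1, 30.5, 71.8 and 124 CPM. Lef1 had 15.2, 17.9, 46.0 and 94.5 CPM, so it differed little below the limit. Klf2 had 1220, 1270, 1410 and 2470 CPM, the step lying within the member cells. The interferon list summed to 912, 1260, 1750 and 2420 CPM. Il10 went the other way with 137, 108, 43.1 and 24.3 CPM, and Cd83 stood at 412, 415, 187 and 132 CPM. The effector and tissue Treg list summed to 20200, 19300, 18000 and 15700 CPM. Areg had 611, 910, 781 and 759 CPM and so followed no single direction. Median depth was 4390.5, 5364, 4726 and 5181 UMIs, lowest in the bin with a score of 0.

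**Figure D3:**
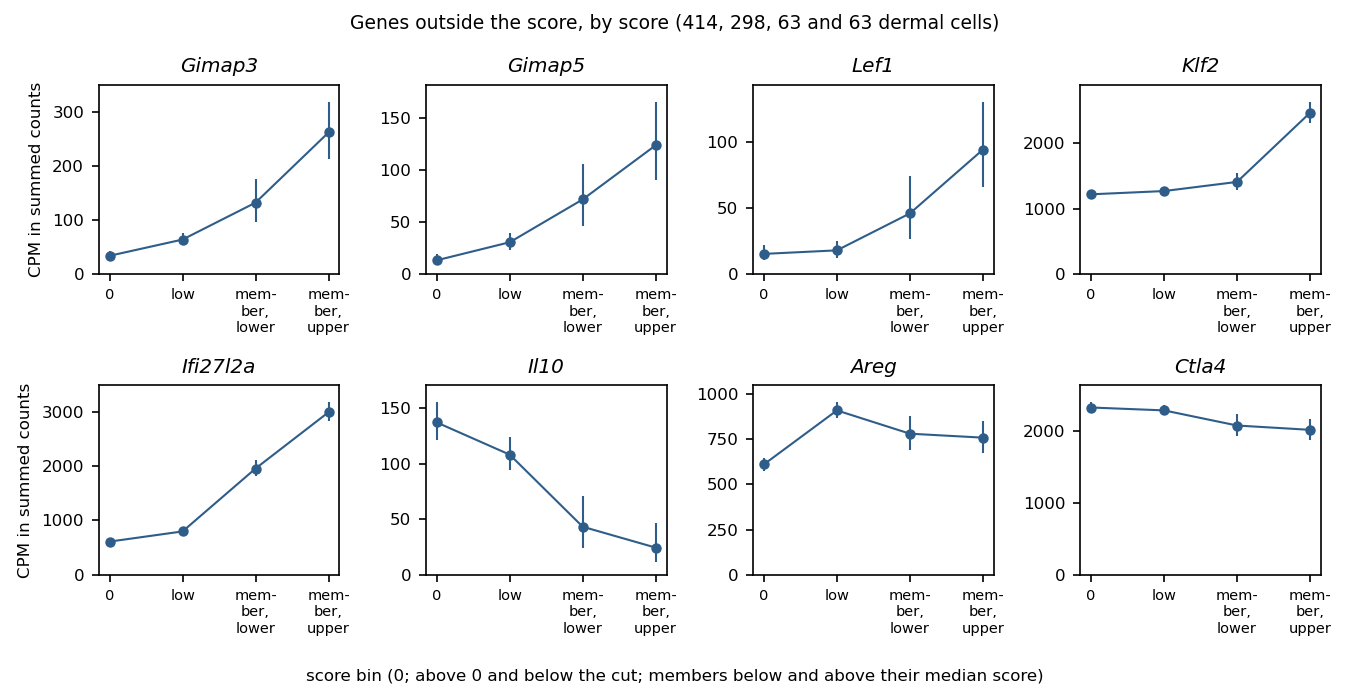
CPM of 8 genes outside the score in 4 bins of dermal cells ordered by score from left (score of 0) to right (upper scores of the member cells); bars are exact 95% Poisson intervals and every vertical axis starts at 0. Gimap3 runs from 33.5 to 262 CPM and Il10 from 137 to 24.3 CPM, while Areg shows no single direction.

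The member cells differed among themselves by which gene of the score they carried. These splits and the genes shown were chosen after values were seen, cells in which a gene is found tend to be deeper, and no test was made. A member cell that lacked a gene of the score had to pass on the other genes of it. The splits are therefore not free of the choice of cells, and they are a description only. The 47 member cells with a Cxcr3 UMI (median 5799 UMIs) had more type 1 RNA than the 79 without (median 4655 UMIs): Nkg7 was at 238 CPM with Cxcr3 and 55.2 CPM without, and Tbx21 had 10 UMIs with and 1 UMI without. They also held 22 of the 24 Il10 UMIs of all member cells, though 87.5% of the 24 lay in 5 cells. The cells with Cxcr3 had less of the homing genes, with Ccr7 at 28.2 CPM, against 125 CPM without Cxcr3, and Klf2 at 1510 CPM, against 2310 CPM without. Areg was at 444 CPM in cells with Cxcr3 and 1030 CPM in cells without.

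In the 46 member cells with an S1pr1 UMI (median 6156.5 UMIs), Klf2 and Ccr7 were higher than in the 80 without (median 4606.5 UMIs), the other way than with Cxcr3. Klf2 was at 2610 CPM with S1pr1 and 1450 CPM without, Ccr7 at 114 CPM with and 57.1 CPM without, and Nrp1 at 174 CPM with and 44.7 CPM without. Gata3 was at 244 CPM in cells with S1pr1 and 392 CPM in cells without. The 34 cells with Izumo1r (median 4688.5 UMIs) had 149 CPM of Lef1, against 40.7 CPM in the 92 without (median 5141.5 UMIs), and 134 CPM of Cd40lg against 34.8 CPM. The 76 cells with Gimap4, Gimap6 or Gimap7 (median 6117 UMIs) had 269 CPM of Gimap3, against 44.6 CPM in the 50 without (median 3818 UMIs), 134 CPM of Nrp1 against 31.2 CPM, and 72.8 CPM of Klf3 against 13.4 CPM. Ctla4 differed little in the first and last of these splits, at 2090 CPM with and 1990 CPM without Cxcr3 and at 2020 CPM with and 2090 CPM without those Gimap genes.

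To see whether member cells lie together in other genes, dermal cells were grouped into 7 clusters with the genes of the score left out. Cluster 6, of 105 cells, was 55.2% member cells (45.2 to 65.0) and held 46.0% of them; Tnfsf8, Rtp4, Mgarp, Iigp1 and Nrp1 were among the genes that led it. Cluster 7, of 49 cells, was 34.7% member cells (21.7 to 49.6), was led by the cell cycle genes Ccnb2, Birc5 and Cdc20, and held 15 of the 27 kept cells with a shared barcode. In the other clusters the share ran from 3.74% to 11.1%. With cluster 6 left out, 68 member cells and 665 other dermal cells remained, and 53 genes were called higher and 55 lower, of which 23 and 27 were among those called with all cells. The list medians were then 1.15 for the other Gimap genes, 0.52 for the interferon response, 0.44 for the type 1 genes, 0.44 for the Ms4a and Ly6 surface proteins and 0.29 for the resting genes. Gimap9, Lef1, Klf3, Stat4, Irf7, Ifi47, Bst2, Ccr4, Itgb1, Ahr and Isg15 were among the genes that lost their calls, Isg15 with a log2 ratio of -1.31. This was an alternative added after the data were seen.

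**Figure D4:**
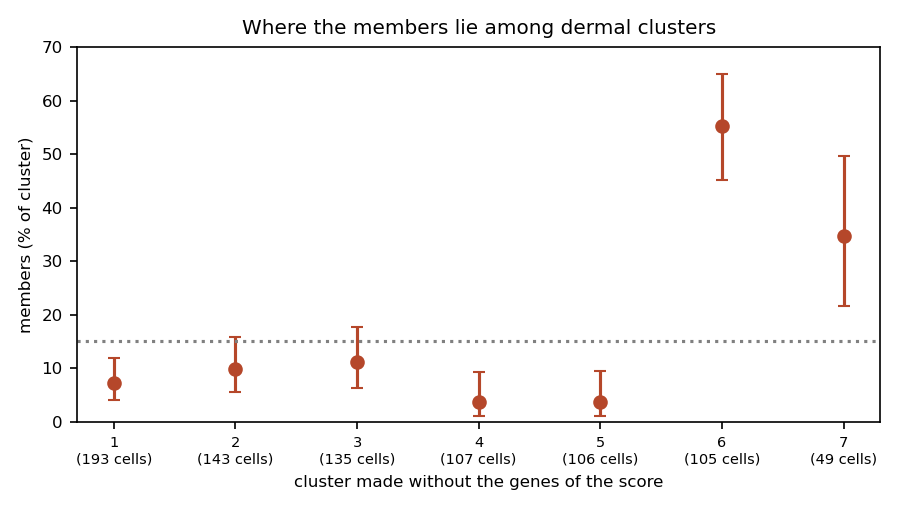
Share of member cells in each of 7 clusters of dermal cells made without the genes of the score, with exact 95% binomial intervals; the dotted line is the share over all kept dermal cells (15%), and the number of cells in each cluster is given under it. Cluster 6 (55.2%) and cluster 7 (34.7%) lie above the line.

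The same rule, with the limit at each library's own 85th percentile, chose 41 of 271 epidermal and 1396 of 9305 lymph node cells. Levels are not compared across libraries, since the node was made with other chemistry, and the contrast within each library is given beside that of the dermis. In the epidermis 113 of 3060 genes were called higher (3.69%) and 438 lower (14.3%), and in the lymph node 2 of 2482 higher (0.0806%) and 4 lower (0.161%). In the node Gimap4 was at 922 CPM in chosen cells and 422 CPM in the rest, and 7882 of the 7909 cells not chosen had at least 1 UMI of any of the 7 genes. The chosen cells of the epidermis had 35.3% of UMIs on ribosomal protein genes, against 23.9% in the rest.

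Of the 40 genes called higher in dermal member cells, 35 reached 50 CPM in the epidermis. A ratio above 1 was found there in 31 of the 35, against 31.6% of all genes that reached 50 CPM. In the epidermis 14 were called higher, 35% of the dermal and 12.4% of the epidermal calls. Among them were Gimap1, Gimap3, Gimap9, Ms4a6b, Lef1, Klf3, Nrp1, Irf7 and Stat4. In the lymph node 28 of the 40 reached 50 CPM and 27 had a ratio above 1, against 52.5% of all genes that reached it, but 0 were called. Of the 50 genes called lower, 30 reached 50 CPM in the epidermis and 22 were called lower there, 44.0% of the dermal and 5.02% of the epidermal calls, with Il10, Ahr, Cd83 and Sdc4 among them. Only Cd74 was called lower in both dermis and node.

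The resting and effector lists stood farther apart in the epidermis. Of 22 resting genes 12 were called higher there and 0 lower. Among them, Ccr7 and Klf2 were not called in the dermis, while Tcf7 and Bcl2 were under 50 CPM there and could not be. In the epidermis 20 genes of the list reached 50 CPM, against 13 in the dermis, so the numbers of calls are not alike in reach. The list median was 1.29, against 0.54 in the dermis and 0.31 in the node. Of 28 effector and tissue genes 17 were called lower in the epidermis, with a median of -1.85, against -0.41 in the dermis and -0.48 in the node. Areg had a log2 ratio of -4.83 in the epidermis, 0.02 in the dermis and -1.39 in the node. Of 20 interferon genes that reached 10 CPM in the epidermis, 6 were called higher and 1 lower. The list median there was 0.18, against -0.30 over all genes. In the node 2 were called higher and 0 lower, with a median of 0.59, against 0.01 over all genes. Zbp1 and Iigp1, called in the dermis, were not called in either, with log2 ratios of -0.11 and -0.23 in the epidermis and 0.68 and 0.79 in the node. Nkg7 had -5.85 in the epidermis and 0.91 in the dermis. When Cxcr3 was left out of the score, it was at 83.8 CPM in the chosen epidermal cells and 103 CPM in the rest, a ratio of 0.81 (0.52 to 1.22), against 3.79 in the dermis and 1.42 (1.20 to 1.66) in the node. The other 6 genes, each left out in turn, gave ratios of 1.77 to 4.16 in the epidermis and 0.828 (Izumo1r) to 1.74 in the node. The difference between the libraries' ratios was not tested, since each tissue is 1 library.

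**Figure D5:**
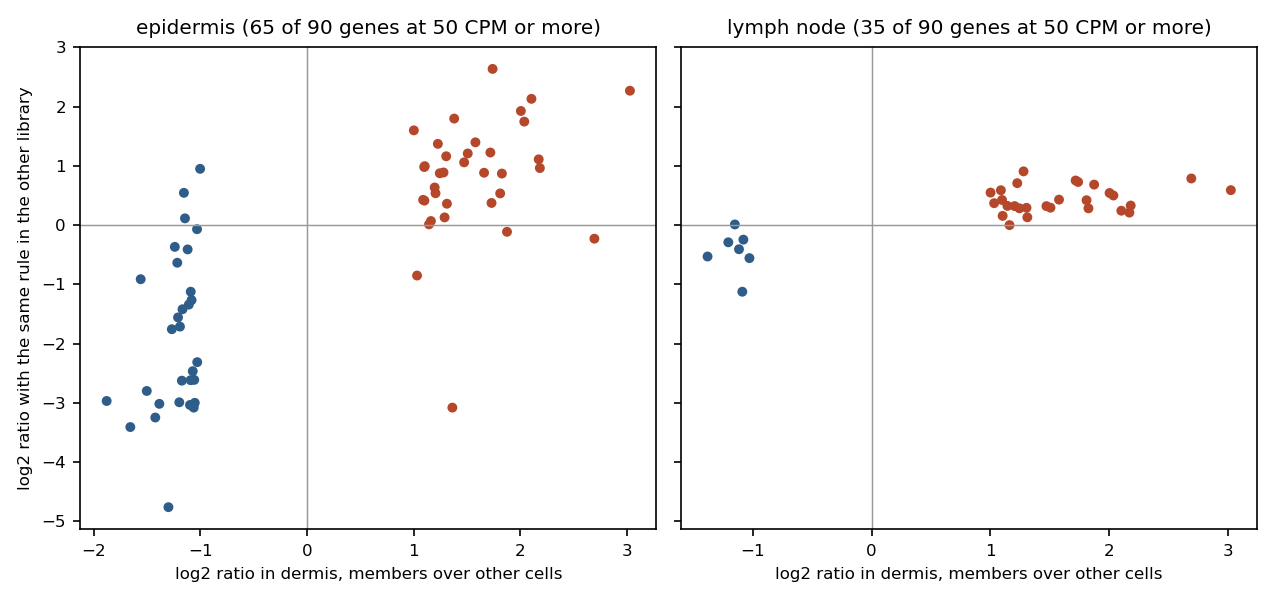
Log2 ratio in the epidermis (left) and in the lymph node (right), cells chosen by the same rule over the rest, against the log2 ratio in the dermis, for the genes called higher (red) or lower (blue) in dermal member cells that reached 50 CPM in that library. The genes called higher in the dermis lie at small positive ratios in the node, and the lone red point near -3 in the epidermis is Pmepa1 (-3.08).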

How the data were processed

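Tregs sorted from the dermis, epidermis and lymph node of FOXP3-EGFP mice were measured by droplet single-cell RNA-seq, 1 library each. Per the file headers, the authors made the skin matrices with Cell Ranger 4.0.0, and the deposited values are UMI counts per gene and cell, without normalization; per the submitters' processing notes, the node was made with Cell Ranger too and all builds are mm10. The matrices held filtered barcodes (1077, 360 and 9419 in dermis, epidermis and node), and no source used here gives the other steps. Intergenic, intronic and strand settings are not given, so overlapping genes cannot be told apart.

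From these counts, cells were kept and scored as the report says. In the dermis, 202 barcodes were over the mitochondrial limit. Counts were summed over the cells of a group and divided by the group's UMI total to give counts per 1000000 (CPM); ratios have exact intervals from the split of a gene's UMIs between groups. With 1 library a tissue no test is possible and none was run. A gene was called at 2-fold with 50 CPM in the higher group, and list medians use genes with 10 CPM in either group; the genes of the score are left out. Shares of cells have exact Clopper-Pearson intervals, with each cell thinned to 1500 UMIs where said. Intervals cover counting error only. Totals were 718445 UMIs in member cells and 3814533 in other dermal cells.

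Clusters came from scanpy 1.11.5 (1500 variable genes, 20 components, 15 neighbours, Leiden resolution 1). Scrublet marked 10 dermal cells, 0 of them member cells, and they were kept. Markers of other cell types over 3% of UMIs were found in 0 cells. TMM factors came from edgeR 4.0.16 as an alternative scaling, along with a median-of-ratios scaling; no count model was fitted. The calling rule was tested on simulated data.

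The text names the genes of the score, 18 Treg and homing genes, the 10 highest and 10 lowest called ratios and up to 4 genes of each of 17 lists; the few others were chosen after their values were seen. A few genes of the lists are not reported here. The cells, the lists and the tested genes were chosen with earlier results of these data known. Sequences are from RefSeq's promoter table, in which 17 of 21 genes looked up had an entry. Coordinates of genes are GENCODE's and those of the promoter windows are RefSeq's, both for GRCm38.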

Additional observations from a re-analysis of the deposited data

Results flagged for a closer look

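Pmepa1, an inhibitor of TGF-beta signalling, was the 1 gene called higher in dermal member cells and lower in the cells chosen by the same rule in the epidermis. In the dermis it had 86.3 CPM in member cells and 33.6 CPM in other dermal cells, a log2 ratio of 1.36, and its call held in 23 of 25 settings. In the epidermis it had 21.7 CPM in the chosen cells and 184 CPM in the rest, a log2 ratio of -3.08. In the lymph node the log2 ratio was -0.22, from 12.8 CPM in the chosen cells and 14.9 CPM in the rest. The difference between the tissues was not tested, since each is 1 library.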

How the results depend on the processing

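No paired analysis was possible because each tissue has 1 library. The main counts were 40 genes higher and 50 lower. They were 64 and 88 with the limit at percentile 90 and 30 and 20 at percentile 80, 29 and 20 with cells chosen after thinning, 118 and 141 with counts thinned, 76 and 104 in cells with a Foxp3 UMI, 490 and 532 in cells with Y-linked RNA alone (12 and 42 cells), and 44 and 21 with the score without Ms4a4b. They were 71 and 69 with totals without mitochondrial and ribosomal protein genes, 111 and 195 at 20 CPM, 966 and 934 with no minimum, and 131 and 218 at 1.5-fold. The share of higher among all calls was 44.4%, and 53.3% with TMM and 53.8% with median-of-ratios scaling, but 60.0% at percentile 80, 59.2% with cells chosen after thinning and 67.7% without Ms4a4b.

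The resting list's median log2 ratio of 0.54 was 0.91 at percentile 90, 0.29 in cells with Y-linked RNA alone, 0.85 with totals without mitochondrial and ribosomal protein genes and 0.29 without cluster 6. That of the other Gimap genes, 1.51, was 2.01 without Ms4a4b in the score and 1.15 without cluster 6. Of 46 called genes named by the rule or after their values were seen, 43 kept their direction in all 25 settings. Isg15 had log2 ratios of -0.15 in cells with Xist alone and -1.31 without cluster 6, Nrp1 -0.11 in cells with Y-linked RNA alone, and Cxcl2 0.51 without Ms4a4b in the score; the cause was not tested. Leaving out cluster 6 or the shared barcodes was chosen after seeing the data.

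Limits: with 1 dermal library the spread between animals was not measured, and the precision of genes under about 50 CPM is poor at 718445 UMIs in member cells. The score reads the same UMIs as the ratios, so deep and shallow cells pass it on different evidence: 2 member cells passed on 1 UMI, at 771 UMIs or fewer. Removing doublets left 41 genes higher and 50 lower.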
